A study of Caenorhabditis elegans with 8 samples.

Results

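The basement membrane genes of Caenorhabditis elegans were followed in animals that lack seip-1, the worm's seipin gene, and in wild type. The set was given by name and holds 10 of 20008 named genes on the array: emb-9 and let-2 (collagen IV), epi-1, lam-3, lam-1 and lam-2 (laminin), nid-1 (nidogen), unc-52 (perlecan), cle-1 (type XVIII collagen) and ost-1 (SPARC). The rule uses gene names and no measured value, but the set was chosen with earlier results of these data known. All 10 were matched by sequence name or accession, and all 17 of their probes were well above background on all 8 arrays. Single-colour arrays were made from total RNA of 4 groups with 2 arrays each: seip-1 knockout embryos, wild-type (N2) embryos, seip-1 knockout young adults and wild-type young adults. Adults were harvested 52 h after L1, and embryos were freed with hypochlorite from gravid adults of that age, about 40000 adults for an embryo sample. The labels name no other allele, transgene or treatment, and they give neither the knockout allele nor the age or cell stage of the embryos.

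A basement membrane is a thin sheet of extracellular matrix that lines tissues such as muscle, pharynx, intestine, epidermis and gonad. Laminin trimers of an alpha, a beta and a gamma chain form a first network at the cell surface, and collagen IV forms a second network that gives the sheet its strength. Nidogen, perlecan and type XVIII collagen are associated with these networks, and SPARC binds collagen IV. In the worm much of the collagen IV is made by body wall muscle, and loss of either collagen IV chain, of laminin or of perlecan is lethal or paralysing in the embryo.

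Levels below are given as scaled signal, which is the processed signal of a probe divided by the 75th percentile of its array. One probe's level is never set against another's, though the sums of markers add different probes. Fold changes are log2 values of limma's moderated linear model over all 8 arrays (n = 2 per group), every ± is the standard error of that model, and the threshold was a Benjamini-Hochberg adjusted p of 0.05 over all genes tested. Median unscaled signals were 265 and 214 in knockout embryos against 74.7 and 77.4 in wild-type embryos, and between 218 and 276 in the 4 adult arrays. The embryo arrays shared 1 slide and scan and the adult arrays another. Genotypes were thus compared on the same slide, but the stage effect cannot be told apart from that of the slide. As a check of the labels, seip-1 was well above background on 4 of 4 wild-type arrays and on 0 of 4 knockout arrays. Its signal was lower by at least 311-fold in knockout embryos and by at least 114-fold in knockout adults, with adjusted p of 2.24e-05 and 4.06e-05, both folds set against the lowest signal well above background.

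The embryo comparison sets embryos without seipin against wild-type embryos. The labels give no embryo age, and markers of early and of differentiated embryos differed between the genotypes, as given below, so genotype and developmental age cannot be told apart in any embryo value. The 2 collagen IV chains, perlecan, type XVIII collagen and SPARC were 6.02-fold to 8.11-fold higher in knockout embryos, nidogen and the laminin alpha gene lam-3 were 2.69-fold and 2.07-fold higher, and the other 3 laminin genes did not pass the test. In all 7 of 10 rose and 0 fell, where 44.6% of the 15397 genes tested rose, 40.3% fell and 84.9% changed in either direction. The median of the 10 was 2.01 on the log2 scale, against 0.15 over all genes tested, whose quartiles were -1.20 and 2.26. In these bulk samples, more cells of a type and more RNA per cell cannot be told apart.

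Collagen IV rose in both chains. The scaled signal of emb-9, which encodes the alpha 1 chain, was 22.4 and 17.9 in knockout embryos, against 3.38 and 3.27 in wild-type embryos (log2 2.59 ± 0.17, adjusted p = 3.80e-05). That of let-2, which encodes the alpha 2 chain, was 21.9 and 18.3 in knockout embryos, against 2.64 and 2.45 in wild-type embryos (log2 2.98 ± 0.16, adjusted p = 3.23e-05). For both chains each knockout array lay above each wild-type array by several fold, and the wild-type arrays lay close together. The 95% intervals of the chains overlapped, from 2.18 to 3.002 for emb-9 and from 2.59 to 3.37 for let-2.

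The genes of the other matrix proteins outside the laminins rose too. ost-1, whose product SPARC is a collagen-binding matrix glycoprotein, read 31.01 and 27.8 in knockout embryos, against 4.68 and 4.51 in wild-type embryos (log2 2.68 ± 0.15). unc-52, whose product perlecan anchors the body wall muscle to the epidermis, read 6.502 and 5.22 in knockout embryos, against 0.729 and 0.709 in wild-type embryos (log2 3.02 ± 0.16). cle-1, whose product is a collagen with an endostatin domain, read 1.66 and 1.25 in knockout embryos, against 0.206 and 0.197 in wild-type embryos (log2 2.84 ± 0.17). For these 3 genes the adjusted p was 3.23e-05, 3.23e-05 and 3.29e-05. The groups did not overlap, which is weak evidence alone with 2 arrays per group. nid-1, whose product nidogen binds laminin and collagen IV in vertebrates, read 5.02 and 6.60 in knockout embryos, against 2.32 and 1.97 in wild-type embryos (log2 1.43 ± 0.18, adjusted p = 3.67e-04).

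The laminin genes did not move together. lam-3, which encodes the alpha A chain, read 3.98 and 5.08 in knockout embryos, against 2.36 and 1.99 in wild-type embryos (log2 1.05 ± 0.18, adjusted p = 0.00154). epi-1, which encodes the alpha B chain, read 16.4 and 20.8 in knockout embryos, against 24.2 and 19.6 in wild-type embryos, and the groups overlapped (log2 -0.24 ± 0.19, adjusted p = 0.284). For lam-2, the gene of the only gamma chain, the values were 2.92 and 3.75 in knockout embryos, against 3.54 and 2.90 in wild-type embryos, again with overlap (log2 0.05 ± 0.19, adjusted p = 0.821). Both knockout arrays lay below both wild-type arrays for lam-1, the gene of the only beta chain, at 0.617 and 0.857 in knockout embryos, against 1.00 and 0.941 in wild-type embryos. That difference did not pass the test either (log2 -0.42 ± 0.20, adjusted p = 0.0949). The 95% intervals of these 3 genes reached at most 0.50 upward, below the lower end of the interval of lam-3 at 0.61 and of collagen IV at 2.18. The difference between genes was not itself tested.

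**Figure D1:**
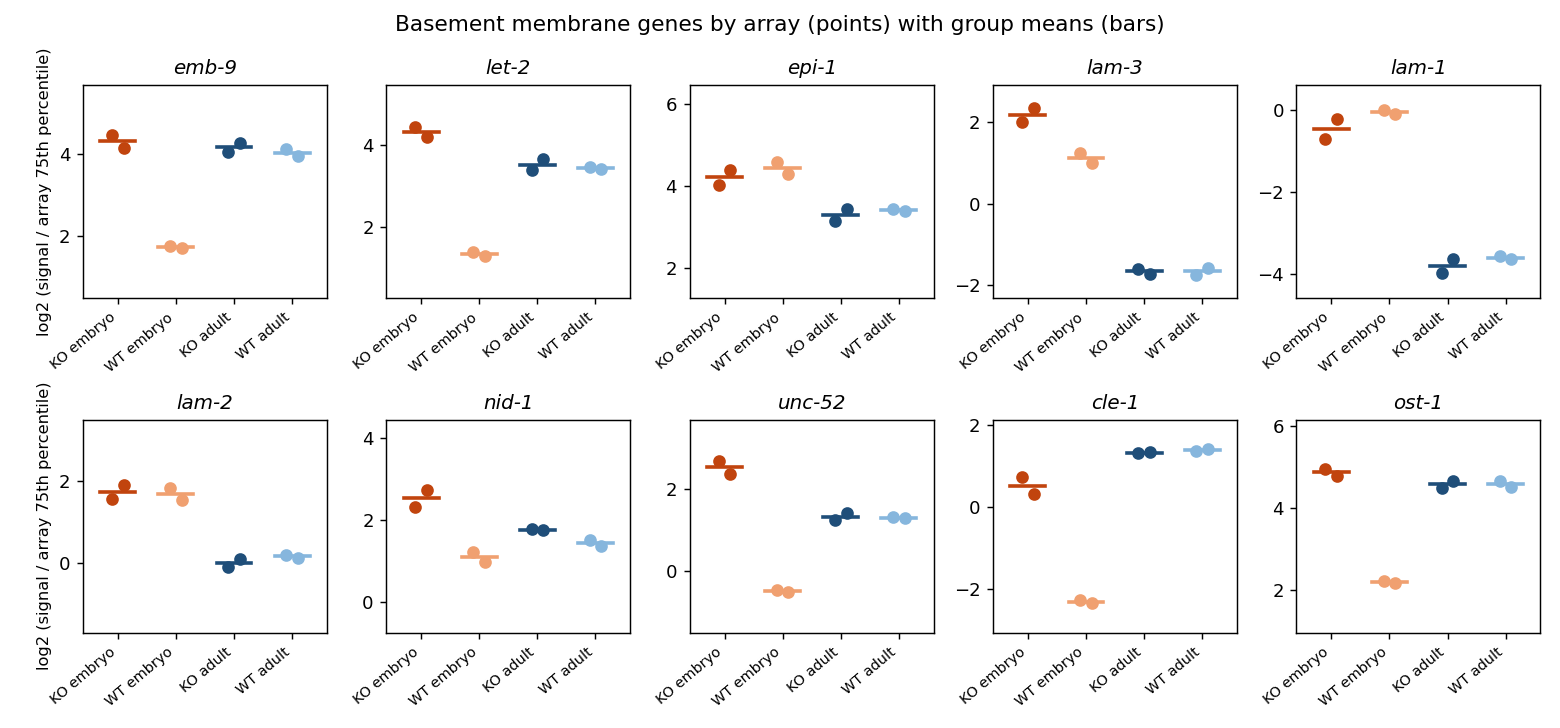
Scaled signal (log2 of signal over the 75th percentile of the array, y axis) of each of the 10 genes in the 4 groups. Points are single arrays, short bars are group means, and each panel spans the same number of log2 units. The wild-type embryo arrays sit lowest for emb-9, let-2, nid-1, unc-52, cle-1 and ost-1, while both adult groups sit lowest for the 4 laminin genes.

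How far the laminin and nidogen values move depends on the scaling between arrays. Quantile normalization shifted the embryo effects of all genes by a median of -0.39, a median over probes above background on all arrays by -0.29, a median over measured probes by -0.91 and a median over all probes by -1.05. The rises of emb-9, let-2, unc-52, cle-1 and ost-1 passed under all 4, with log2 values of 1.54 or more, and emb-9 reached 3.40 with quantile normalization. lam-3 lost its call under the 2 largest shifts (0.00 and 0.14) and nid-1 under the largest (0.38). The split of called genes was 7 up and 0 down as reported, 8 and 0 with quantile normalization, 7 and 2 and then 6 and 3 with the smaller median sets, and 5 and 3 with all probes. In those 4 other settings 81.4%, 86.5%, 86.9% and 86.4% of all genes tested were called in either direction, in that order. The median effect over all genes tested was 0.02, -0.15, -0.76 and -0.90, so the array as a whole moved downward with the median scalings. The genes called lower in those median settings were lam-1 and epi-1, joined by lam-2 under the 2 largest shifts, and lam-2 was called higher with quantile normalization (0.65). lam-1 also fell with normexp background correction (adjusted p = 0.044), with the mean of its probes (adjusted p = 0.0472) and without the second knockout embryo array (adjusted p = 0.024).

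**Figure D2:**
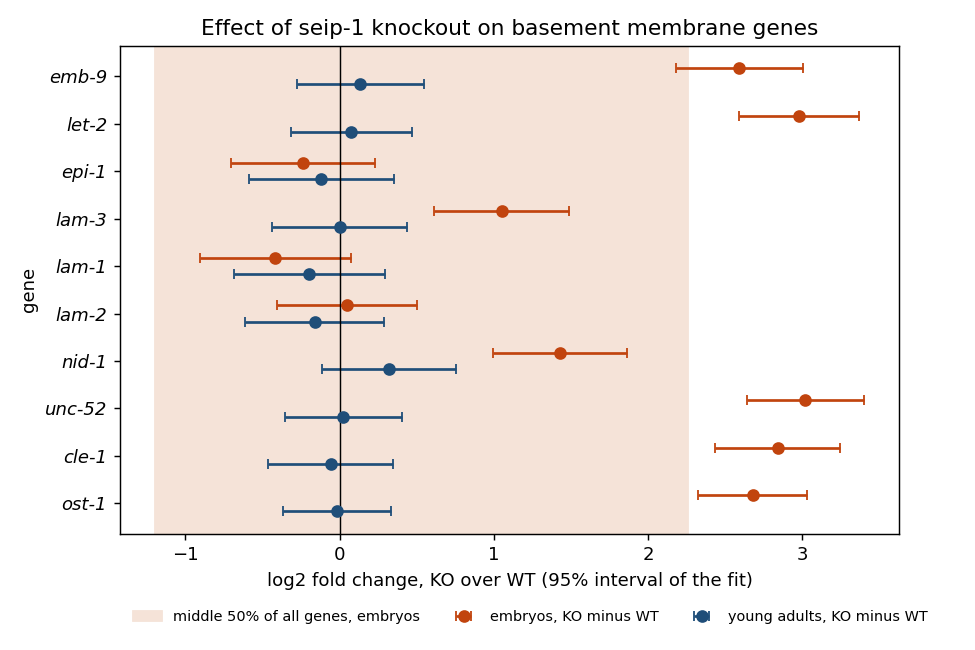
Log2 fold change of knockout over wild type (x axis) for each gene (y axis), in embryos and in young adults, with 95% intervals of the linear model. The shaded band runs between the quartiles of all genes tested in embryos, from -1.20 to 2.26. In embryos 5 genes lie to the right of the band, 2 lie between 1 and 1.5, and 3 laminin genes lie near 0, while all young adult values lie near 0.

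Markers of several cell types differed in the same embryo arrays. Over all genes tested there, 44.6% rose and 40.3% fell, so a mixed split of a short list is not read as a result about its cell type. The marker lists were chosen with earlier results of these data known. Of 10 body wall muscle markers 9 rose and 0 fell, and their summed scaled signal was 217 and 172 in knockout embryos, against 31.1 and 30.4 in wild-type embryos. Of 8 intestine markers 7 rose and 1 fell (sum 81.3 and 60.4 against 11.5 and 11.1), of 5 pharynx muscle markers 4 rose and 0 fell (21.7 and 17.5 against 8.55 and 7.37), and of 6 epidermis markers 2 rose and 1 fell (26.1 and 28.9 against 18.7 and 18.4). A sum adds different probes, so bright markers weigh most in it. By gene, the median log2 change was 2.64 for the pharynx muscle list and 0.03 for the epidermis list. In the other direction, 10 of 10 oocyte and germline markers fell (35.3 and 41.9 in knockout embryos, against 165 and 188 in wild-type embryos), and 6 of 7 early zygotic markers fell (1.38 and 1.85 against 10.1 and 10.5). All markers of these 6 lists were above background on every embryo array, except 1 intestine marker on a wild-type array. Of 7 neuron markers 4 rose and 2 fell, of 5 somatic gonad markers tested 3 rose and 1 fell, of 6 yolk and adult cuticle markers tested 5 rose and 0 fell, and of 2 sperm markers tested 1 rose and 1 fell. The part of these differences, early zygotic and muscle markers included, in the values of the basement membrane genes was not tested.

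Among the markers, lev-11, which encodes tropomyosin, and mlc-2, which encodes a myosin light chain, rose by 3.14 ± 0.15 and 2.80 ± 0.15 on the log2 scale. Of the epidermis markers, the attachment gene mup-4 and the cuticle collagen gene dpy-7 rose by 3.04 ± 0.21 and 2.73 ± 0.37, the GATA factor gene elt-1 fell (log2 -1.08 ± 0.24), and the median of the list was 0.03. The P granule gene pgl-1 fell by 2.61 and the meiotic axis gene him-3 by 2.98 (SE 0.16 and 0.20).

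**Figure D3:**
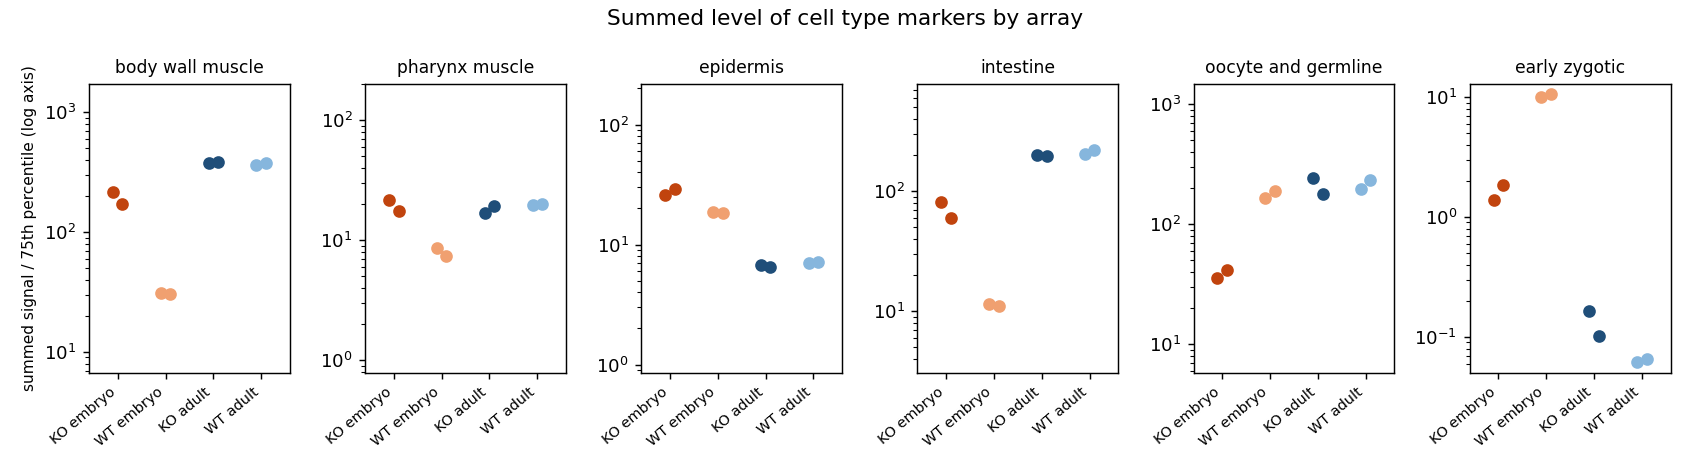
Summed scaled signal (log axis) of the measured markers of 6 cell types or stages on each array, by group. In knockout embryos the muscle, pharynx and intestine sums lie above those of wild-type embryos, and the oocyte and germline and early zygotic sums lie below them, while knockout and wild-type adults lie close together, apart from the early zygotic markers, of which at most 2 were above background on an adult array.

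In young adults the genotypes were set against each other in the same way. None of the 10 basement membrane genes passed limma's test in knockout adults, 0 had an unadjusted p under 0.05, and 0.0999% of the 15008 genes tested were called, 0.0666% upward and 0.0333% downward. The log2 differences ran from -0.20 ± 0.20 for lam-1 to 0.32 ± 0.18 for nid-1, with a median of -0.01 against 0.00 over all genes tested. emb-9 read 16.6 and 19.5 in knockout adults, against 17.4 and 15.5 in wild-type adults, and ost-1 read 22.4 and 25.6 in knockout adults, against 25.6 and 22.9 in wild-type adults. The groups overlapped except for nid-1, lam-2 and cle-1. With 2 arrays per group non-overlap alone is weak evidence, and its share over all genes was not counted. The 2 knockout arrays were the higher ones for nid-1, at 3.41 and 3.38 in knockout adults, against 2.86 and 2.59 in wild-type adults (unadjusted p = 0.126). They were the lower ones for lam-2 and cle-1. The 95% intervals of the 10 genes stayed between -0.69 and 0.75, so a 2-fold change lies outside each of them. No marker of the 10 lists passed in adults either. As a check of the stage labels, the 9 measured yolk and adult cuticle markers had a sum of 562 to 725 in adults. It was 1.85 and 1.63 in knockout embryos and 0.240 and 0.241 in wild-type embryos. All 9 were above background on each adult array. Only 6 of them were tested in the embryo comparison, so the others counted as measured through the adults alone.

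The knockout effect was then compared between embryos and young adults in the same model. For 7 of 10 genes it was higher in embryos, where 39% of the 16832 genes tested were called in that direction, 33.6% in the other and 72.6% in either. The difference was 2.996 ± 0.22 on the log2 scale for unc-52, 2.90 ± 0.23 for let-2, 2.90 ± 0.24 for cle-1, 2.69 ± 0.21 for ost-1 and 2.46 ± 0.24 for emb-9, with adjusted p from 2.56e-04 to 3.58e-04. It was 1.11 ± 0.26 for nid-1 (adjusted p = 0.00762) and 1.05 ± 0.26 for lam-3 (adjusted p = 0.00972), and both lost their calls with the median over all or over measured probes (adjusted p from 0.622 to 0.938). For lam-1, lam-2 and epi-1 the difference did not pass (adjusted p = 0.512, 0.500 and 0.713). These 3 were called lower, however, with the median over all probes (-1.30, -0.87 and -1.20) and with that over measured probes, and lam-2 was called higher with quantile normalization (0.82).

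Across the 4 groups the genes fell into different orders. In wild type, young adults had more RNA than embryos of emb-9 (log2 2.31 ± 0.17), let-2 (2.11 ± 0.16), unc-52 (1.78 ± 0.16), cle-1 (3.70 ± 0.17) and ost-1 (2.40 ± 0.15), and less of lam-1 (-3.57 ± 0.20), lam-3 (-2.78 ± 0.18), lam-2 (-1.53 ± 0.19) and epi-1 (-1.04 ± 0.19). The adjusted p of these 9 was 0.00223 or less, and 84% of the 16120 genes tested were called, 42.6% upward and 41.4% downward. nid-1 did not pass (0.35 ± 0.18, adjusted p = 0.112), and other settings called it in opposite directions. It was called higher in adults with quantile normalization (0.54, adjusted p = 0.0306) and with array weights (adjusted p = 0.0487), and lower with the median over all probes (-0.56, adjusted p = 0.0436).

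In the knockout, young adults had more RNA than embryos of cle-1 alone among the 10 genes (log2 0.80 ± 0.17), and 81.4% of the 16547 genes tested were called, 43.2% upward and 38.3% downward. Less was found in knockout adults than in knockout embryos for let-2 (-0.79 ± 0.16), unc-52 (-1.21 ± 0.16), nid-1 (-0.76 ± 0.18), lam-1 (-3.34 ± 0.20), lam-2 (-1.74 ± 0.19), lam-3 (-3.83 ± 0.18) and epi-1 (-0.92 ± 0.19). emb-9 (-0.15 ± 0.17) and ost-1 (-0.30 ± 0.15) did not pass (adjusted p = 0.429 and 0.101). With quantile normalization both were called lower in adults (-0.88 and -1.06), ost-1 was also called lower with normexp (adjusted p = 0.0266) and with a trended and robust prior (adjusted p = 0.0388), and the 3 median scalings turned the sign of emb-9, which stayed without a call (0.02 to 0.11).

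The orders of the levels are described from these values. Knockout embryos were not tested against wild-type adults, and ranks across the stages cannot be told apart from an effect of the slide. For let-2, unc-52 and nid-1 knockout embryos stood highest, then both adult groups, which were not called apart, then wild-type embryos, with nid-1 in wild-type adults and embryos not called apart. The order of nid-1 depended on the scaling. Its embryo groups were not called apart with the median over all probes, and its wild-type stages were called apart in opposite directions under other settings. emb-9 and ost-1 had wild-type embryos lowest, and their knockout embryos were not called apart from knockout adults. cle-1 was highest in both adult groups, at 2.50 and 2.54 in knockout and 2.57 and 2.67 in wild-type adults, then in knockout embryos, then in wild-type embryos. lam-3 was highest in knockout embryos, then in wild-type embryos, and lowest in both adult groups, at 0.332 and 0.302 in knockout and 0.297 and 0.337 in wild-type adults. Its embryo groups were not called apart with the median over all or over measured probes. lam-1, lam-2 and epi-1 were higher in both embryo groups than in both adult groups, with neighbours of the same stage not called apart as reported. Under some other scalings their embryo groups were called apart, as given above. lam-1 was 10.2-fold lower in knockout adults than in knockout embryos and 11.8-fold lower in wild-type adults than in wild-type embryos.

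Of the 10 genes 5 have more than 1 probe, and probes of the same gene gave the same side in embryos where a gene rose. With all probes tested, 12 of the 17 probes rose and 1 fell in knockout embryos, while 82% of 31782 probes were called, 43.5% upward and 38.4% downward. The 3 probes of cle-1 gave log2 values from 2.64 to 2.84, and both probes of lam-3 gave 1.05 and 1.16. For lam-1 the dimmer probe fell (-0.58 ± 0.19, adjusted p = 0.0268) where the brighter did not pass. Both probes of lam-2 missed the test and lay on opposite sides of 0 (-0.39 ± 0.21 and 0.05 ± 0.18). In knockout adults 0 of 17 probes passed, with 0.067% of 29867 probes called.

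Perlecan RNA is spliced into several isoforms, and the 3 unc-52 probes agreed on the genotype effect but not on the size of the stage difference. The array names them by the transcripts ZC101.2e, ZC101.2b and NM_064645, and their exons were not mapped here. In embryos the knockout effect was 3.56 ± 0.17, 3.40 ± 0.22 and 3.02 ± 0.15 on the log2 scale in that order. The probe of ZC101.2e read 0.507 and 0.665 in knockout adults and 0.647 and 0.589 in wild-type adults, against 1.30 and 1.17 in knockout embryos and 0.107 and 0.102 in wild-type embryos. The probe of ZC101.2b read 0.312 and 0.434 in knockout adults and 0.448 and 0.430 in wild-type adults, against 3.68 and 2.66 in knockout embryos and 0.285 and 0.306 in wild-type embryos. Wild-type adults were higher than wild-type embryos by 2.57 ± 0.17 at ZC101.2e and by 0.57 ± 0.22 at ZC101.2b (adjusted p = 1.51e-05 and 0.0479). The call at ZC101.2b was lost under all 4 other scalings (adjusted p from 0.0611 to 0.698), and its sign turned with the median over all and over measured probes (-0.34 and -0.16), while ZC101.2e stayed at 1.66 or more. Knockout adults were lower than knockout embryos by -1.09 ± 0.17 at ZC101.2e and by -3.09 ± 0.22 at ZC101.2b (adjusted p = 0.00102 and 2.32e-05). In the stage comparisons 83.5% of probes were called in wild type and 80.3% in the knockout. The difference between the probes was not itself tested.

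**Figure D4:**
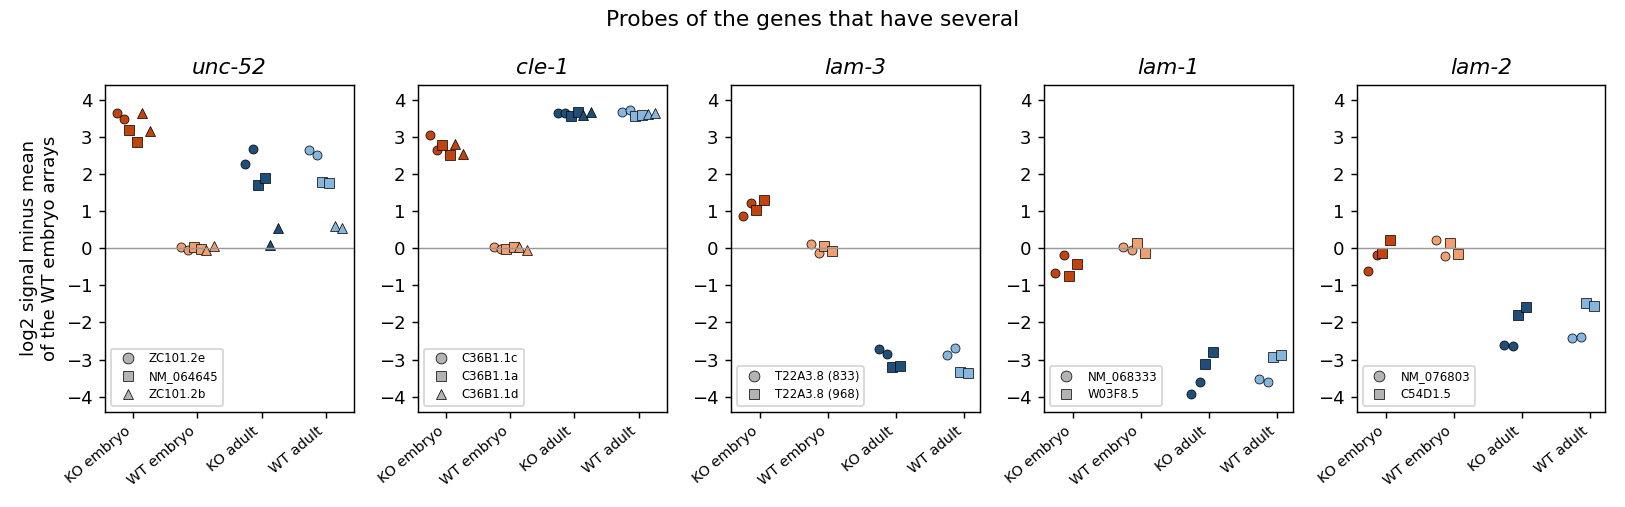
Log2 signal of each probe minus its mean over the wild-type embryo arrays (y axis), by group, for the 5 genes with several probes. Marker shapes are probes, named by the transcript on the array, with 1 marker per array. The probes of cle-1 coincide, while the adult markers of unc-52 spread, with ZC101.2b between 0 and 1 and ZC101.2e above 2.

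Other genes of the basement membrane pathway were taken from lists chosen with earlier results of these data known. Their counts are therefore a description and no independent support. Of 13 other matrix genes 13 rose and 0 fell in knockout embryos, with a median of 2.58 and a range from 0.70 to 3.40, where 44.6% of all genes tested rose. With quantile normalization 12 rose, and with the median over all probes 10. The agrin gene agr-1 read 2.09 and 2.09 in knockout embryos, against 0.316 and 0.317 in wild-type embryos (log2 2.73 ± 0.13). mig-17, which encodes a secreted ADAM-family metalloprotease that acts in basement membranes during gonad migration, read 1.51 and 1.40 in knockout embryos, against 0.136 and 0.140 in wild-type embryos (log2 3.40 ± 0.17). Of 11 genes of the integrin adhesion complex, which ties muscle cells to perlecan, 11 rose and 0 fell (median 2.46), and 7 rose with the median over all probes. Among them the vinculin gene deb-1 rose by 3.12 ± 0.17 and unc-98, a component of muscle attachments, by 2.92 ± 0.13.

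The receptor list was mixed. Of 13 genes 5 rose and 3 fell (median 0.25), where 44.6% of all genes tested rose and 40.3% fell. The split was 8 and 3 with quantile normalization and 2 and 9 with the median over all probes. Those settings called 81.4% and 86.4% of all genes tested in either direction, with median effects of 0.02 and -0.90. The split is therefore not read as a result about receptors. The alpha integrin gene pat-2 rose by 2.46 ± 0.17 and the discoidin domain receptor gene ddr-1, whose vertebrate relatives bind collagen, by 2.15 ± 0.14. The glypican gene lon-2 fell (log2 -1.02 ± 0.13), and the dystroglycan-related dgn-3 was not well above background in knockout embryos and at least 2.11-fold lower there.

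The last lists hold enzymes and secretion factors. Over all genes tested in embryos 44.6% rose and 40.3% fell. Of 7 genes of collagen IV modification and secretion 3 rose and 3 fell (median -0.15), with 4 and 2 under quantile normalization and 1 and 4 under the median over all probes. phy-2, which encodes a prolyl 4-hydroxylase subunit, rose by 1.76 ± 0.17, and let-268, which encodes the lysyl hydroxylase that collagen IV processing needs in the worm, by 0.96 ± 0.17. tmem-39 and tmem-131, which encode membrane proteins needed for collagen secretion, fell (log2 -1.32 ± 0.19 and -1.07 ± 0.17). Of 15 genes of heparan sulfate and chondroitin synthesis, whose products make the sugar chains of proteoglycans such as perlecan, 2 rose and 11 fell (median -0.97). The split was 2 and 9 under quantile normalization and 1 and 13 under the median over all probes. Those settings called 81.4% and 86.4% of all genes tested in either direction. The UDP-glucose dehydrogenase gene sqv-4 and the sulfotransferase gene hst-3.1 rose by 1.98 ± 0.21 and 1.28 ± 0.16, while the galactosyltransferase gene sqv-3 and the sulfotransferase gene hst-2 fell (log2 -1.48 ± 0.19 and -1.41 ± 0.19). In knockout adults 0 genes of the 5 lists passed, where 0.0999% of all genes tested were called. Each list was given by its counts, without a test of the list.

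**Figure D5:**
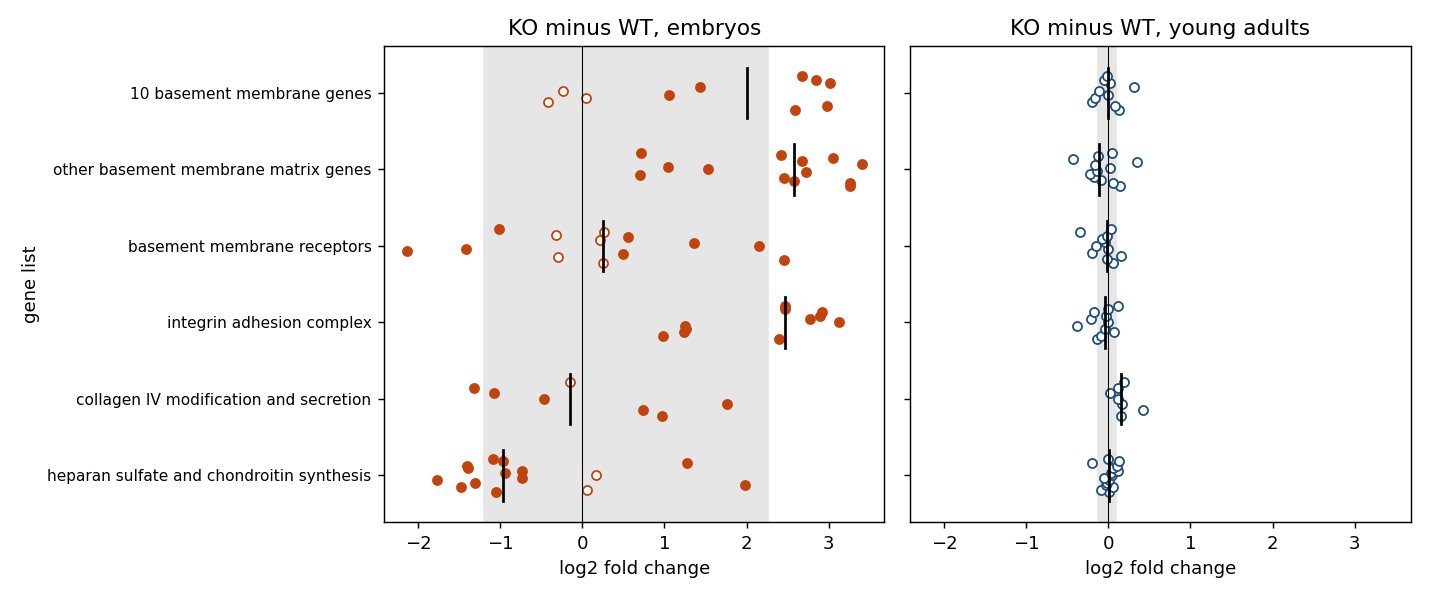
Log2 fold change of knockout over wild type (x axis) for the genes of 6 lists (y axis), in embryos (left) and young adults (right). Filled points passed the adjusted test, open points did not, black ticks are list medians and the grey band lies between the quartiles of all genes tested. In embryos all points of the other matrix and integrin adhesion lists are filled and above 0, and in adults all points are open.

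The genes whose levels over the 8 arrays were most like the mean of emb-9 and let-2 were alp-1, mps-1, dcar-1, nekl-3 and ceh-33, with Pearson r from 0.997 to 0.999 among 9451 genes with a gene name. This is a description of likeness over 8 arrays that fall into 4 groups. alp-1, for example, differed by 3.17 in knockout against wild-type embryos, by 0.06 in knockout against wild-type adults and by 2.50 in wild-type adults against wild-type embryos on the log2 scale.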

How the data were processed

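RNA was labelled with Cy3 (0.2 µg per sample) and hybridised to 8 Agilent arrays. Per the file headers, the deposited intensity values came from Agilent Feature Extraction 10.7.1.1 and are background-subtracted and detrended within each array, not scaled between arrays. The deposited log2 value table matched the log2 processed signal minus the array's 75th percentile and the wild-type mean of the stage within 0.01 for 348797 of 348824 values. No label states these steps.

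Here, spots of the same probe were averaged on the log2 scale, leaving out control spots and outlier flags (4 to 12 spots per array), and scaled by the 75th percentile. Probes were named with RefSeq (WBcel235): 31500 by sequence name, 3674 by transcript accession, 8429 unnamed. The array design uses an older build, so no positions are given. A probe counted as measured where it cleared background on each array of some group. Each gene took the value of its brightest such probe (16832 genes), and it was tested where this held for a group compared. The fit used limma 3.58.1 in R 4.3.3 (two-sided tests, with 4 residual degrees of freedom and a prior of 2.39), tested on simulated data. Figures used matplotlib 3.10.9. The arrays' number limits the precision, and since the labels do not say whether replicates are separate cultures, p-values reflect only how these samples vary, which may be technical. Alternatives changed the scaling, background correction, dim-probe filter, probe rule, spread prior, array weights, arrays in the fit and replicate block, left out each array, or took the deposited table. The normexp alternative used the median spot signal, since the files used here hold no mean signal.

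The genes named are the 10 members, seip-1, per list up to 2 genes per direction by adjusted p in embryos, and the 5 most like collagen IV. The 5 pathway lists and 10 marker lists, like the members, were chosen with earlier results of these data known. vit-3 and msp-10 matched no probe. Same-numbered arrays had deviations that correlated at 0.00 in embryos and -0.48 in adults across genes, so the numbers were not taken as pairs.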

Additional observations from a re-analysis of the deposited data

Results flagged for a closer look

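The knockout effect differed between embryos and young adults for 7 of the 10 basement membrane genes, by the test of that difference in limma's model. On the log2 scale the effect in embryos minus that in young adults was 2.46 for emb-9, 2.90 for let-2, 1.05 for lam-3, 1.11 for nid-1, 2.996 for unc-52, 2.90 for cle-1 and 2.69 for ost-1. Each stage lay on a slide of its own, each with both genotypes, and 72.6% of all genes tested showed such a difference in either direction. That share is near that of the 10 genes. Genotype and developmental age cannot be told apart in the embryo values that enter this difference. lam-3 and nid-1 lost their calls with the median over all or over measured probes.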

How the results depend on the processing

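Median scaling over measured probes, median scaling over probes above background on all arrays, the crossed pairing and the scalings of the unc-52 probes were chosen after seeing the data. The embryo rises of emb-9, let-2, unc-52, cle-1 and ost-1 were called under every alternative with 2 arrays per group. Over all 22 alternatives their log2 values were 1.54 or more. Leaving out an adult array, the crossed pairing, the dim-probe filter and the deposited table could hardly move these values. Those runs are no check of the rises. In young adults the alternatives with 2 arrays per group called 0 of the 10 genes. Over all genes tested they called 68.3% to 86.9% in embryos and 0.00666% to 0.34% in young adults. Of the 10 genes the replicate block called 7 in embryos, 0 in young adults, 7 for the difference, and 9 and 8 for stage in wild type and knockout, as did the crossed pairing. Over all genes tested the replicate block called 79.2%, 0.0133%, 63.4%, 78% and 75.5% in that order. The crossed pairing called 86.7%, 0.00666%, 76.1%, 86.3% and 84%. Median scaling over all probes called 7 of the 11 adhesion genes in embryos, where it called 86.4% of all genes tested in either direction. Signs turned as follows, in log2. In embryos lam-2 was -1.0004, -0.86 and -0.25 under the median scalings over all probes, measured probes and probes above background on all arrays, and -0.17 with the mean of probes, and epi-1 was 0.39 with quantile normalization. In young adults lam-3 was 0.029 with quantile normalization, 0.034, 0.040 and 0.0084 under those scalings in that order, 0.016 with normexp and 0.080 with the mean of probes. There unc-52 was -0.11 with the mean of probes, cle-1 0.0052 with normexp, and ost-1 0.018 and 0.024 under the median scalings over all and measured probes. For the difference, lam-2 was -0.87, -0.74 and -0.093 under the median scalings, lam-3 -0.032 with all probes and epi-1 0.51 with quantile normalization. For stage, nid-1 in wild type was -0.56 and -0.38 with all and measured probes, the unc-52 probe ZC101.2b in wild type was -0.34 and -0.16 likewise, and emb-9 in the knockout was 0.019, 0.068 and 0.11 under the 3 median scalings. The cause was not tested. Leaving out each array in turn gave ranges across 0 for lam-2 in embryos (-0.13 to 0.23), for let-2 (-0.058 to 0.21), lam-3 (-0.091 to 0.089), epi-1 (-0.27 to 0.028), unc-52 (-0.066 to 0.11) and ost-1 (-0.11 to 0.078) in young adults, for lam-1 (-0.46 to 0.015) and epi-1 (-0.29 to 0.055) in the difference, and for emb-9 by stage in the knockout (-0.31 to 0.0074). Without the second knockout embryo array, lam-1 was called lower in embryos. Signal limited none of the 10 genes, which were above background on all 8 arrays.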
